A study of Capsella grandiflora and Capsella rubella and Capsella orientalis with 27 samples.

Results

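Seedlings of Capsella orientalis and Capsella rubella were compared across all gene identifiers of an RNA sequencing series. The comparison used the 3 libraries titled as C. orientalis seedlings and the 3 titled as C. rubella seedlings, 6 of 27 libraries in all, each from seedlings 10 days old. The other libraries came from C. grandiflora seedlings and from expanding or dividing flower buds of the same 3 species. They are described only where named, but all 27 libraries entered the fit from which genes were called. The labels used here name no treatment, genotype or strain of the plants. They also leave unsaid whether replicates are separate plants, and p-values therefore rest on a spread among libraries that could be technical. Seedlings mix many kinds of cells, and in such bulk samples fewer cells of a type and less RNA per cell cannot be told apart.

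Capsella is a small genus of the mustard family and a relative of Arabidopsis. C. rubella and C. orientalis both fertilise themselves and arose separately from outcrossing ancestors, C. rubella from a lineage close to the present outcrosser C. grandiflora, and C. orientalis from an older split. Young seedlings have opened their green leaves and live on photosynthesis, and they carry no flowers. A difference between species at this stage is therefore measured in plants without flowers. Whether it bears on the flower traits for which selfing species are known was not tested. The deposited files list 26521 identifiers without gene names or functions, so genes are given by identifier and by their levels, and no function is stated for any of them.

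The seedling libraries held 21414486 to 30435360 gene counts in C. orientalis and 24720910 to 26575001 in C. rubella. Replicates stood close together: the median absolute log2 difference of a gene between libraries was 0.115 to 0.180 within C. orientalis, 0.182 to 0.256 within C. rubella and 0.495 to 0.603 between the species. The label of the stage was checked with 3884 genes chosen as seedling-preferential in C. grandiflora alone. Their share of the reads on tested genes was 39.95% to 40.8% in the C. orientalis seedling libraries and 38.6% to 39.8% in those of C. rubella. In bud libraries of the same species they held 10.9% to 12.3%, far below every seedling library. Some read classes outside the gene counts differed between the species without overlap: reads outside any gene made up 3.04% ± 0.0989 of listed reads in C. orientalis and 4.84% ± 0.124 in C. rubella (SD, n = 3 each). Reads aligned to several places made up 8.33% ± 0.559 and 7.10% ± 0.410, and ambiguous reads 4.20% ± 0.0327 and 3.78% ± 0.126 (exact two-sided permutation p = 0.1 for each of these 3 classes, the smallest that 3 against 3 libraries can give). All reads were counted on 1 set of gene models whose identifiers have the form used for C. rubella. A gene that differs in sequence or is missing in C. orientalis and a gene with less RNA there cannot be told apart in these counts.

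More genes differed between seedlings of the selfing species than did not. Of 23186 genes with enough counts to be tested, 13963 (60.2%) differed, called where the p from the quasi-likelihood test of edgeR, adjusted over all tested genes by the Benjamini-Hochberg method, was under 0.05. C. orientalis had the higher level for 7287 of them (31.4% of tested genes) and the lower level for 6676 (28.8%). The species' libraries did not overlap in level for 13829 genes (59.6% of those tested). At least 2-fold, 5824 genes (25.1%) were called, and here the lower genes were the more numerous, with 2666 (11.5%) higher and 3158 (13.6%) lower. The direction of the small excess over all calls turned in a fit of the 9 seedling libraries alone, with 5607 higher and 5859 lower, while the excess of lower genes among 2-fold calls did not turn under the alternatives for which it was counted. The median log2 fold over all tested genes was 0, a value that the scaling of libraries brings near 0 by design.

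**Figure D1:**
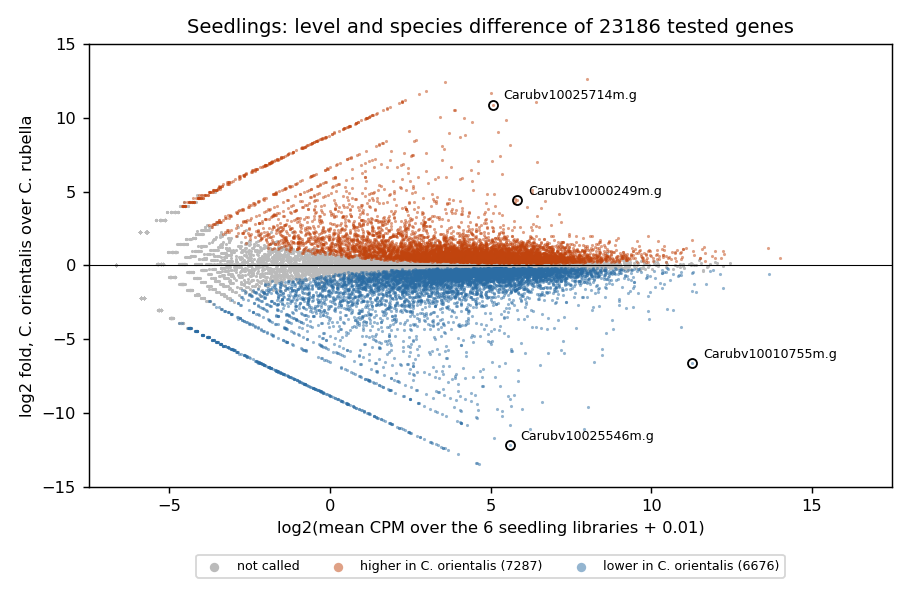
Each point is 1 of 23186 tested genes, with its mean level in counts per 1000000 (CPM) over the 6 seedling libraries on a log2 axis and its log2 fold of C. orientalis over C. rubella. Coloured points are the 7287 higher and 6676 lower genes called, grey points were not called, and the 4 ringed genes are described by name; the straight lines of points at low levels are genes with 0 or a few counts in one of the species.

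Most differences were small and some were very large. Of the called genes, 4681 (33.5%) differed by under 1.5-fold and 3458 (24.8%) by 1.5 to 2-fold, and in both classes higher genes were the more numerous (2701 against 1980 and 1920 against 1538). Differences of 2 to 4-fold were even, with 1519 higher and 1531 lower. From there on lower genes led, with 868 lower and 653 higher at 4 to 16-fold and 759 lower and 494 higher above 16-fold. The balance also changed with level. At 10 to 100 CPM, gene counts per 1000000 after scaling, C. orientalis was the higher species for 38.2% of 10149 genes and the lower for 30.3%. Among 5915 genes at 1 to 10 CPM the order was the other way, with 31.5% higher and 34.8% lower. Large folds were a larger share of genes at low levels than at high levels: at 0.1 to 1 CPM, calls of at least 2-fold took in 24.1% of genes upward and 28.5% downward, against 6.08% and 7.07% of the 2304 genes above 100 CPM. Below 0.1 CPM only 8.27% of genes were called, where few counts limit what can be seen.

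**Figure D2:**
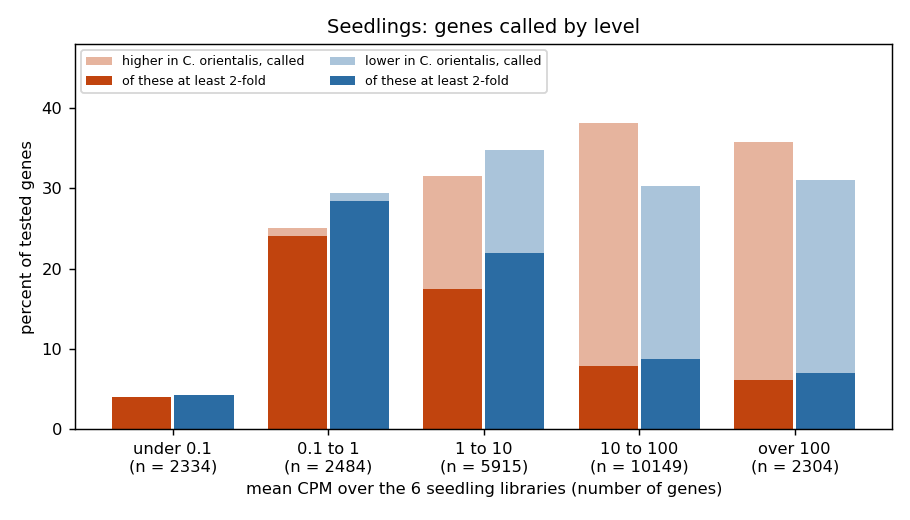
Bars give the percent of tested genes called higher (orange) or lower (blue) in C. orientalis seedlings, by mean level over the 6 libraries, and the dark part of each bar gives those of at least 2-fold. Genes called at least 2-fold fall from 24.1% and 28.5% at 0.1 to 1 CPM to 6.08% and 7.07% above 100 CPM.

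Some genes were present in seedlings of one species and nearly absent from the other. At a mean of 1 CPM or more in one species and under 0.1 CPM in every library of the other, 256 genes (1.10% of those tested) were found in C. rubella but hardly in C. orientalis, and 175 (0.755%) in C. orientalis but hardly in C. rubella. The genes of C. rubella had a median of 3.77 CPM there and a highest mean of 96.6 CPM, and 57 reached 10 CPM. Those of C. orientalis had a median of 2.35 CPM and a highest mean of 66.7 CPM, and 17 reached 10 CPM. With no count at all in 3 libraries of the other species and at least 1 CPM in each library of its own, 108 genes were seen in C. rubella and 59 in C. orientalis. Of those 108 genes, 56 (51.9%) had 0 counts in all 9 C. orientalis libraries, buds included, and 16 of the 59 (27.1%) had 0 counts in all 9 C. rubella libraries.

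The near-absent genes had the same direction in buds in most cases, measured in other libraries. Of the 256 genes, 199 (77.7%) were also called lower in C. orientalis at both bud stages, where 32.6% of tested genes in expanding and 27.5% in dividing buds were called lower. Of the 175, 138 (78.9%) were called higher at both, where 29.6% and 31.1% of tested genes were called higher. Near-absent genes have large folds, and of all seedling calls above 16-fold 65.3% of the lower and 64.0% of the higher were made the same way at both bud stages. A few were absent from seedlings alone: the species that lacked the gene in seedlings had it at 1 CPM or more in buds for 17 of the 256 and 27 of the 175. C. grandiflora seedlings held 115 of the 256 genes (44.9%) at 1 CPM or more in each of 3 libraries and 31 (12.1%) under 0.1 CPM in each. For the 175 genes these numbers were 41 (23.4%) and 41 (23.4%). Of the genes nearly absent from C. orientalis seedlings, 98 (38.3%) were seedling-preferential in C. grandiflora, and of those nearly absent from C. rubella seedlings 38 (21.7%). The difference was not tested. Among all tested genes 16.8% were seedling-preferential. Among all calls of at least 2-fold, 1041 of 3158 lower and 650 of 2666 higher genes were, so a large share is not particular to near-absent genes.

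The 5 most abundant near-absent genes of C. orientalis had means of 29.8 to 66.7 CPM there, and the 5 of C. rubella 47.97 to 96.6 CPM; the first of each is given by library. Carubv10025714m.g stood at 74.1, 67.8 and 58.3 CPM in the C. orientalis seedling libraries and at 0.0480, 0.0485 and 0 CPM in those of C. rubella. The groups were far apart, and the C. rubella libraries held 2 counts in all, a ratio of 2155 (95% interval 596.5 to 17790 from an exact Poisson interval on those counts, which covers counting error only). Its adjusted p was 2.74e-17 by edgeR's quasi-likelihood test. It stood at 8.93 to 12.3 CPM in C. grandiflora seedlings, between the selfing species, and its log2 fold was 10.38 in expanding and 11.88 in dividing buds, so the gene was nearly missing from C. rubella at each stage sampled. Carubv10025546m.g showed the opposite state, at 101, 95.1 and 93.9 CPM in C. rubella seedlings and 0.0400, 0 and 0 CPM in C. orientalis. A single count lay behind the C. orientalis level, and the ratio was 5907 (95% interval 1060 to 233300 by the same method; edgeR's quasi-likelihood adjusted p = 7.77e-15). C. grandiflora seedlings held it at 24.7 to 26.3 CPM, and all 6 bud libraries of C. orientalis were at 0.

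Differences among genes present in both species were also large and went further down than up in C. orientalis. Among genes of at least 5 CPM in both, the 5 with the largest higher folds had log2 folds of 3.94 to 4.41, and the 5 with the largest lower folds -6.63 to -5.67. The largest of the first was Carubv10000249m.g, at 108, 103 and 114 CPM in C. orientalis seedlings and 4.75, 6.55 and 4.06 CPM in C. rubella. Every C. orientalis library stood far above every C. rubella library, with a log2 fold of 4.41 (SE 0.14, edgeR's quasi-likelihood adjusted p = 2.68e-18). C. grandiflora seedlings, at 3.77 to 5.98 CPM, overlapped the C. rubella range. The largest of the second was Carubv10010755m.g, at 58.4, 49.9 and 41.0 CPM in C. orientalis seedlings and 4965, 5162 and 4638 CPM in C. rubella. That is a log2 fold of -6.63 (SE 0.33, edgeR's quasi-likelihood adjusted p = 1.60e-14), in a gene among the more abundant of the C. rubella seedling. C. grandiflora seedlings lay between them at 409 to 998 CPM. The gene was lower in C. orientalis in buds as well, with log2 folds of -4.33 and -5.76 in expanding and dividing buds, at far lower levels in both species. Not all of these genes did so: 4 of the 5 higher and 2 of the 5 lower genes were called the same way at both bud stages. The remaining lower genes were called higher in C. orientalis in dividing buds, with log2 folds of 2.27 to 9.43. The gene at 9.43, at 0 CPM in C. rubella dividing buds, was also called higher in expanding buds (5.62).

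**Figure D3:**
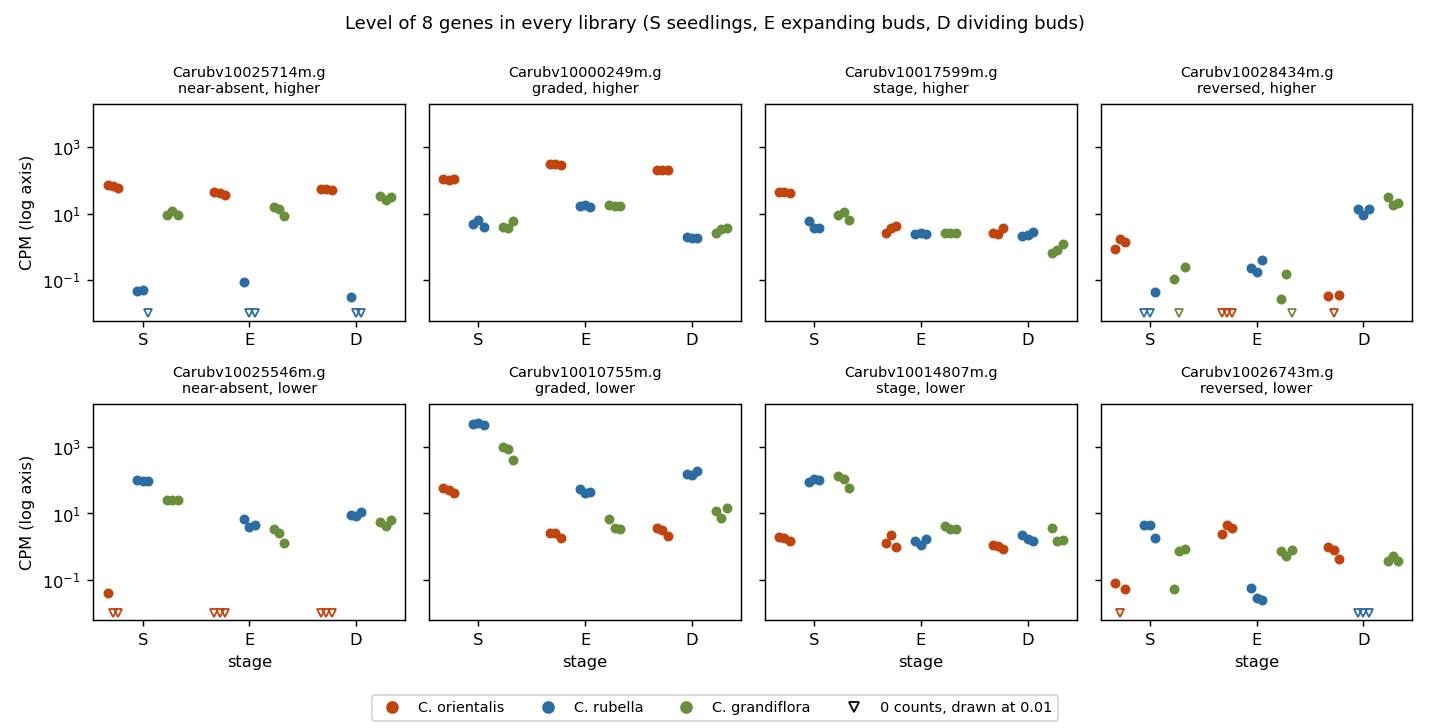
CPM on a log axis of 8 genes in every library of C. orientalis (orange), C. rubella (blue) and C. grandiflora (green), for seedlings (S), expanding buds (E) and dividing buds (D); open triangles are libraries with 0 counts, drawn at 0.01. The near-absent and graded genes drawn here keep their species difference in buds. The stage genes differ between the selfing species in seedlings and overlap or nearly overlap in buds, and the reversed genes change direction.

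Genes of the highest level in seedlings were largely shared between the species, and most of them differed in level. The 10 most abundant genes took 7.10% ± 0.175 of gene counts in C. orientalis and 6.27% ± 0.249 in C. rubella (SD, n = 3 each), without overlap (exact two-sided permutation p = 0.1, the smallest possible). Of the 10 most abundant genes of each species 5 were shared, and of the 100 most abundant 74 were shared. Of the 126 genes in either list of 100, 96 (76.2%) were called, 55 higher and 41 lower in C. orientalis. Among all tested genes 60.2% were called, and among those above 100 CPM 66.9%. The lists came from the libraries compared, and a gene high in 1 species alone can enter them. Called genes are therefore favoured by the choice. At least 2-fold, 34 of the 126 were called, 15 higher and 19 lower, where 25.1% of all tested genes were. Above 100 CPM 6.08% of genes were called at least 2-fold higher and 7.07% lower. The 3 largest gains in CPM in C. orientalis were of genes at 6383 to 19120 CPM there, with log2 folds of 0.48 to 1.15. None of them was called higher at both bud stages. The gene at 17402 CPM was called lower in dividing buds (log2 fold -0.49), and the gene at 6383 CPM in expanding buds (-0.36). The 3 largest losses were of genes at 4922 to 15470 CPM in C. rubella. Their log2 folds ran from -6.63 (Carubv10010755m.g) to -0.61, and 1 of them was called lower at both bud stages. Another, at 7141 CPM in C. rubella, was called higher in C. orientalis at both bud stages (log2 folds 0.71 in expanding and 1.21 in dividing buds). Genes called at least 2-fold took 15.1% ± 0.206 of all tested counts in C. orientalis and 17.8% ± 0.0583 in C. rubella, which describes the genes the same libraries chose.

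C. grandiflora, which is in neither group compared but shares the fit, served to describe where the large differences lay. Of the 3158 genes at least 2-fold lower in C. orientalis, 1693 (53.6%) had all 3 C. grandiflora seedling libraries on the C. rubella side of the midpoint between the selfing species, on the log2(CPM + 0.1) scale. In 614 (19.4%) all 3 lay on the C. orientalis side, and in 851 (26.9%) they were split. Of the 2666 genes at least 2-fold higher in C. orientalis, 1203 (45.1%) had C. grandiflora on the C. rubella side, 715 (26.8%) on the C. orientalis side and 748 (28.1%) were split. Above 16-fold the shares on the C. rubella side were 54.9% of 759 lower genes and 42.5% of 494 higher genes. C. grandiflora seedlings were thus more often near C. rubella than near C. orientalis in both directions; these counts were not tested, and the C. grandiflora seedling libraries held 10612848 to 21880641 gene counts.

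Genes typical of seedlings were lower in C. orientalis more often than higher, the more so the more they were confined to seedlings. Seedling-preferential genes were called and at least 2-fold higher in C. grandiflora seedlings than in each of its bud stages. The contrasts that chose them use none of the libraries compared, though the fit is shared. Of the 3884, 1485 (38.2%) fell and 1216 (31.3%) rose in C. orientalis relative to C. rubella, with 1041 and 650 at least 2-fold and a median log2 fold of -0.09. Over all tested genes 28.8% were lower and 31.4% higher, with a median of 0. In contrast, genes preferential to expanding buds, which are low in seedlings, had 673 higher and 527 lower of 2730, genes preferential to dividing buds 399 and 359 of 1996, and genes of both bud stages 369 and 283 of 1258. Even genes, under 2-fold between all stages of C. grandiflora, had 3095 higher and 2652 lower of 8836. These excesses of higher genes were not all stable. In the fit of the 9 seedling libraries alone, even genes had 2316 higher and 2316 lower, and dividing-bud genes 257 and 252. Seedling-preferential genes kept their direction there, with 1049 higher and 1414 lower. At least 2-fold in the main fit, 14.4% of even genes were called, 43.5% of the seedling-preferential genes and 25.1% of all tested genes. Median levels in C. orientalis and C. rubella seedlings were 26.5 and 25.5 CPM for even genes and 9.15 and 11.9 CPM for seedling-preferential genes. The part of level in this contrast was not tested.

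The seedling-preferential genes were then split by how far they exceeded the nearer bud stage in C. grandiflora, classes set after the first counts were seen. Of 1560 genes at 2 to 4-fold, 616 (39.5%) were higher and 521 (33.4%) lower in C. orientalis, with a median log2 fold of 0.06. At 4 to 16-fold 383 (28.7%) were higher and 551 (41.2%) lower of 1336, with a median of -0.15. Above 16-fold 217 (22.0%) were higher and 413 (41.8%) lower of 988, with a median of -0.34. Shares of reads did not follow the gene counts in every class. The 1560 genes held 17.45%, 17.3% and 17.2% of reads in the C. orientalis libraries and 15.04%, 14.4% and 15.2% in those of C. rubella. The 988 genes held 2.63%, 2.85% and 2.96% in C. orientalis and 4.89%, 5.20% and 4.92% in C. rubella. Neither class overlapped between the species (exact two-sided permutation p = 0.1 in each, the smallest possible). The middle class held 20.1% ± 0.490 in C. orientalis and 19.4% ± 0.452 in C. rubella (SD, n = 3 each), a higher mean in C. orientalis although more of its genes were lower there, and the libraries overlapped (exact two-sided permutation p = 0.3).

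Few genes carried much of the read difference above 16-fold. Contributors were ranked by the difference itself. Without Carubv10010755m.g, the first of them, the share of the remaining 987 genes was 2.81% ± 0.170 in C. orientalis and 4.59% ± 0.162 in C. rubella (SD, n = 3 each). Without the 10 largest contributors it was 2.42% ± 0.180 and 3.03% ± 0.0537, still without overlap. All seedling-preferential genes together went the other way, with 40.25% ± 0.459 of counts in C. orientalis and 39.3% ± 0.617 in C. rubella (exact two-sided permutation p = 0.1). Taken at 4-fold and above they held 22.95% and 24.4%, so the direction of the summed share depends on the fold that defines the group. By level, the 81 genes above 1000 CPM in C. grandiflora seedlings had 35 higher and 24 lower in C. orientalis, and the 1369 genes at 1 to 10 CPM had 353 higher and 542 lower. The part that the nearness of C. grandiflora to C. rubella has in these counts was not tested.

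**Figure D4:**
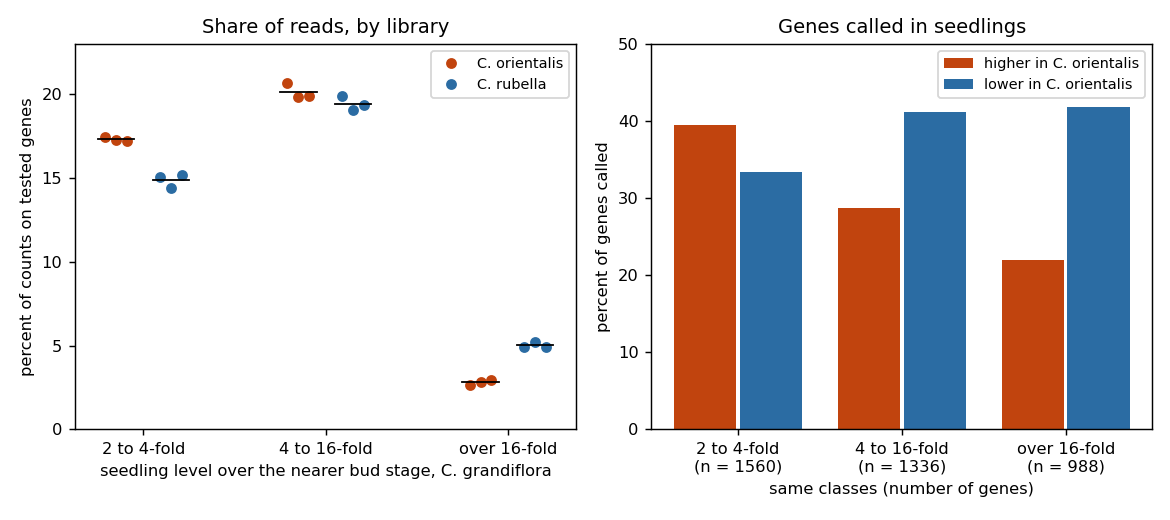
Left, the percent of counts on tested genes held by seedling-preferential genes in each seedling library, for 3 classes of preference in C. grandiflora, with a line at each mean; right, the percent of genes of each class called higher or lower in C. orientalis. C. orientalis libraries stand above in the 2 to 4-fold class (17.2% to 17.45% against 14.4% to 15.2%) and below in the class over 16-fold (2.63% to 2.96% against 4.89% to 5.20%).

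The species difference of seedlings was in part the same in buds and in part not. The bud comparisons of the same species share no library with the seedling comparison. All came from the same fit, with shared filter, scaling and estimate of each gene's spread, so calls at the stages are not independent. Of the 13963 genes called in seedlings, 5877 (42.1%) were called the same way at both bud stages, 2685 (19.2%) the same way at one and not called at the other, and 2800 (20.1%) at neither. A call of the opposite sign at one or both bud stages was seen for 2601 (18.6%). Larger differences were shared more often: 50.3% of genes called at least 2-fold and 64.8% of the 1253 above 16-fold were called the same way at both bud stages. In buds alone, 14410 genes (62.1%) were called between the species in expanding and 13584 (58.6%) in dividing buds. Across genes, which are not independent replicates, the log2 folds in seedlings correlated at r = 0.558 with expanding and 0.544 with dividing buds over 23186 genes, and those of the bud stages at 0.709 with each other. These points share the gene models, and no p is given.

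**Figure D5:**
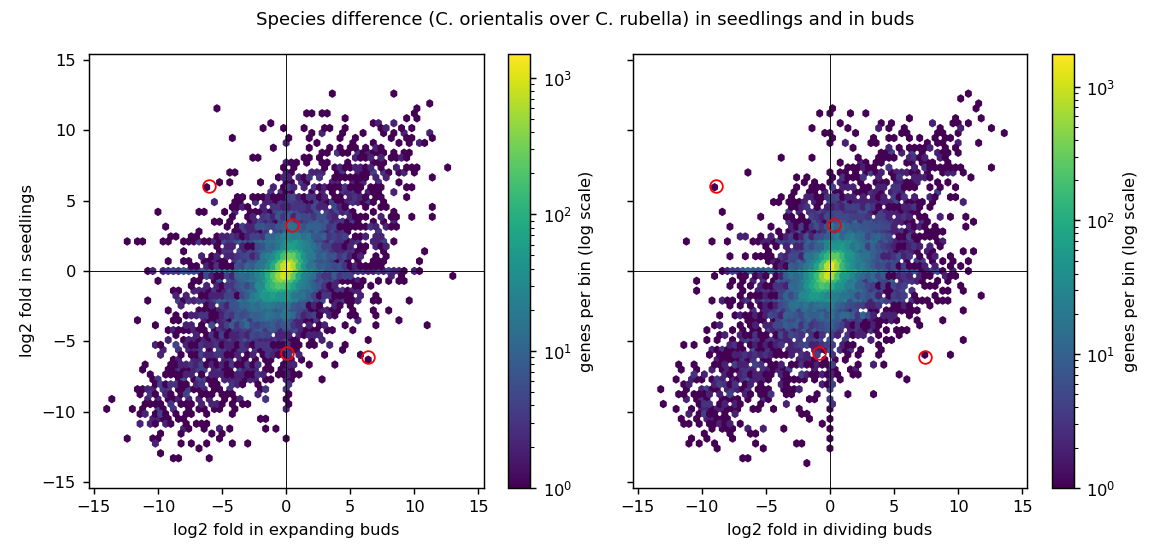
Log2 folds of C. orientalis over C. rubella in seedlings (vertical) against expanding buds (left) and dividing buds (right), with colour for the number of genes in a bin on a log scale and red rings for the 4 genes named for a stage difference. The cloud runs from lower left to upper right (r = 0.558 and 0.544), with genes along both axes that differ at one stage only.

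The difference between stages was tested gene by gene. The species difference in seedlings differed from that in expanding buds for 10103 genes (43.6% of 23186) and from that in dividing buds for 9420 (40.6%), by edgeR's quasi-likelihood test of the interaction at a Benjamini-Hochberg adjusted p under 0.05. For 1365 genes called in seedlings, neither bud stage was called and both interactions were, 854 of them higher and 511 lower in C. orientalis. At least 2-fold in seedlings, these numbered 243 higher and 180 lower, of which 54 and 53 were seedling-preferential in C. grandiflora and 71 and 33 even. Of all 23186 tested genes, 3884 were seedling-preferential and 8836 even. Of all 2666 higher and 3158 lower calls of at least 2-fold, 650 and 1041 were seedling-preferential and 558 and 712 even. Opposite calls at both bud stages were made for 464 genes higher and 450 lower in C. orientalis seedlings.

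Of the genes that differed in seedlings alone, Carubv10017599m.g stood at 43.9, 45.4 and 43.0 CPM in C. orientalis seedlings and 6.002, 3.79 and 3.76 CPM in C. rubella. The log2 fold was 3.29 (SE 0.20, edgeR's quasi-likelihood adjusted p = 7.42e-13), with no overlap. In buds the species were at 2.09 to 4.20 CPM, and the log2 folds of 0.47 and 0.30 were not called (edgeR's adjusted p = 0.0560 and 0.254). Carubv10014807m.g stood at 1.92, 1.78 and 1.53 CPM in C. orientalis seedlings and 89.6, 109 and 99.9 CPM in C. rubella, a log2 fold of -5.82 (SE 0.32, edgeR's adjusted p = 1.26e-13). C. orientalis thus kept this gene in seedlings near the 0.853 to 2.30 CPM that both species showed in buds, while C. rubella seedlings were far above, like C. grandiflora seedlings at 57.9 to 133 CPM. Its log2 folds of 0.07 in expanding and -0.83 in dividing buds were not called (edgeR's adjusted p = 0.889 and 0.0850). In dividing buds the libraries still did not overlap, at 0.853 to 1.14 CPM in C. orientalis and 1.52 to 2.18 CPM in C. rubella.

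Among the genes whose direction turned, Carubv10028434m.g was at 0.881, 1.67 and 1.42 CPM in C. orientalis seedlings and at 0, 0 and 0.0432 CPM in C. rubella, where a single count was seen (log2 fold 6.03, edgeR's adjusted p = 2.00e-06). In dividing buds C. rubella held it at 9.44 to 13.8 CPM and C. orientalis at no more than 0.0355 CPM. The gene was therefore seen mainly in dividing buds in C. rubella and mainly in seedlings in C. orientalis. Carubv10026743m.g was at 0.0801, 0 and 0.0548 CPM in C. orientalis seedlings and 4.66, 4.61 and 1.77 CPM in C. rubella (log2 fold -6.11, edgeR's adjusted p = 8.77e-08). In expanding buds it was at 2.40 to 4.36 CPM in C. orientalis and at most 0.0581 CPM in C. rubella, and in dividing buds the C. rubella libraries held no count. The lower group of each of these comparisons held 0 to 4 counts over its 3 libraries. Without the 1 library that held the single C. rubella seedling count (replicate 3), the log2 fold of Carubv10028434m.g was 8.24, and without C. orientalis replicate 1 that of Carubv10026743m.g was -6.84.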

How the data were processed

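RNA was measured in 27 libraries of 3 species and 3 stages, and groups were taken from the sample titles. The deposited files hold raw counts of reads per gene identifier, and the authors' tools were Trimmomatic and HTSeq, per the submitters' processing notes. The libraries were made with a TruSeq RNA kit and sequenced as single reads, per the labels' protocols. The aligner, the genome build, the annotation, the strand setting and tool versions are information not given in the sources used here, so reads of overlapping genes on opposite strands or of near-identical copies may be split or lost. The 5 summary rows were dropped from library sizes and tests; their shares in seedlings are given with the results, and those listing unaligned reads and reads of low quality were 0.

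The work was done with edgeR 4.0.16 under R 4.3.3. Filtering by filterByExpr left 23186 genes and 3335 identifiers untested, and TMM factors (trimmed mean of M-values) scaled the libraries. All 27 libraries entered 1 fit of 9 group means (18 residual degrees of freedom, common biological coefficient of variation 0.111) without a replicate term. Contrasts were tested with the quasi-likelihood F-test, with calls at an adjusted p under 0.05 (Benjamini-Hochberg). Standard errors of log2 folds are the absolute fold over the root of F. CPM are counts per 1000000 after TMM scaling. Shares of reads were compared by exact two-sided permutation of 3 against 3 libraries. The procedure was tested on simulated data in which few genes were changed, a setting unlike the many differences called here.

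The comparison, groups and lists were chosen with earlier results of these data known. Planned lists of gene names could not be used, since the files pair no identifier with a name, and groups by the stage profile of C. grandiflora took their place. Genes were named by a rule: among genes called without overlap of libraries, the first in each direction of those under 0.1 CPM in every library of the other species (by level), of those of at least 5 CPM in both (by fold), of those of at least 1 mean CPM at each stage in both species that were called in seedlings alone with both interactions called (by fold), and of those reversed at both bud stages (by the smallest of the 3 stage folds). The rule allowed more genes of each kind, and those given appear as ranges. Alternatives were RLE scaling, no filter, DESeq2 1.42.0, fits of 6 or 9 seedling libraries, a replicate block, an adjusted p under 0.01 and leaving out each seedling library compared. Replicate pairs gave a chi-square per degree of freedom of 11.6 to 42.95 (genes of 20 counts or more), so no pair agreed within sampling noise.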

Additional observations from a re-analysis of the deposited data

Results flagged for a closer look

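The species difference of a gene differed between stages, by the test of the interaction itself, for 10103 genes between seedlings and expanding buds and for 9420 between seedlings and dividing buds (quasi-likelihood test of edgeR with Benjamini-Hochberg adjustment). The 4 genes named for a stage difference have these interactions, given as the log2 fold of C. orientalis over C. rubella in seedlings minus that in buds. Carubv10017599m.g had 2.82 against expanding and 2.99 against dividing buds. Carubv10014807m.g had -5.89 and -4.98. Carubv10028434m.g had 12.07 and 14.91, and Carubv10026743m.g -12.52 and -13.55, both resting on groups with 0 to 4 counts. The highest adjusted p among the 8 interactions was 1.55e-06 by edgeR's quasi-likelihood test. The rule that named these genes asked for called interactions or for opposite calls in buds. Small values therefore follow from the choice and add no further evidence.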

How the results depend on the processing

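Over the alternatives run, the number of genes called in seedlings lay between 11466 (9 seedling libraries alone) and 14071 (no filter), and that of 2-fold calls between 4998 and 6051. Leaving out 1 seedling library gave 13070 to 13687 calls and 5627 to 5917 at least 2-fold, and 9302 to 10490 and 8643 to 9697 interactions with expanding and dividing buds. The log2 folds of the 8 named genes kept their direction and call under each alternative, but 3 that rest on groups with few counts moved by over 1.5 times without 1 library: Carubv10025546m.g from -12.19 to -14.45 (C. orientalis replicate 1, which held its only count there), Carubv10026743m.g from -6.11 to -6.84 (the same library) and Carubv10028434m.g from 6.03 to 8.24 (C. rubella replicate 3). The share of seedling calls made the same way at both bud stages, 42.1%, was 43.1% with DESeq2 and 42.04% to 44.9% without 1 library. The called genes preferential to dividing buds fell from 758 to 503 in the fit of 6 libraries, with fewer samples and 19574 genes tested. The C. orientalis minus C. rubella share of reads on seedling-preferential genes, 0.946 percentage points, turned to -1.48 when the group was taken at 4-fold; without 1 library it was 0.610 to 1.22. For genes over 16-fold, a class and alternatives added after seeing the data, the difference of -2.19 percentage points was -1.78 without the largest contributor, -0.612 without the 10 largest and -2.26 to -2.09 without 1 library. Replicate numbers did not pair the samples: deviations of same-numbered seedling libraries correlated at 0.0594, 0.0224 and -0.0935, and a fit with the replicate number as a block called 13755 genes. Depth limits genes under 0.1 CPM, where a library holds few counts.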
